A study of Mus musculus with 6 samples.

Results

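The genes of the DNA replication machinery were followed in subcutaneous mouse tumours after 16 hours of miR-155 withdrawal. They were picked out by a rule on gene symbols that uses no measured value, written with earlier results of these data known, as the subunits of the replicative helicase, the origin recognition complex, the GINS complex, the replicative polymerases and primase, the sliding clamp and its loader, the single-strand binding protein, the enzymes that finish Okazaki fragments, and a few loading and chromatin factors. The symbol rule found 53 of the 29209 entries of the authors' deposited table. Of these, 52 were tested by the authors and 51 have a finite fold. Pole1 has no values, and Orc6 has a listed ratio of 0 with a p of 1, while the entry Orc6l of the same gene carries a finite fold.

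Both groups were tumours in NCr nude mice, which lack a thymus, grown from spleen cells of diseased mir-155LSLtTA animals injected under the skin. In the DOX group (3 samples) the mice had eaten chow with doxycycline at 2.3 mg per kg for 16 hours before harvest, which turns the transgenic miR-155 off. In the no DOX group (3 samples) miR-155 overexpression continued. After dispersal of the tumour tissue into a cell suspension and lysis of red cells, total RNA was taken and libraries were made after removal of ribosomal RNA. All samples came from transgenic tumours, so the effects of doxycycline and of miR-155 loss cannot be told apart, and the level of miR-155 itself was not analysed here.

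The authors' deposited table gives 1 linear fold and 2 p-values per gene and no value per sample, so neither the spread within a group nor the depth can be shown. A fold is taken here as DOX divided by no DOX; the table does not state the order, and "fell" and "rose" change places throughout if it is the reverse. A gene was called where the authors' adjusted p was under 0.05. The approximate standard error (SE) printed beside a log2 fold is the absolute log2 fold divided by the normal quantile of the unadjusted p. It is a guide to precision, not a measured spread. In these bulk samples fewer dividing cells and less RNA per cell cannot be told apart.

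Replication begins when the origin recognition complex, Cdc6 and Cdt1 load the Mcm ring onto DNA, and a kinase step then joins Cdc45 and GINS to it to make the active helicase. Polymerase alpha with primase lays down primers, polymerase epsilon extends the leading strand and polymerase delta the lagging strand, both held to DNA by the Pcna clamp, which the Rfc complex loads. Most of these genes are transcribed as cells enter S phase, many of them under E2F factors, and their RNA is high in fast dividing lymphoid cells.

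The replication genes were lower in DOX tumours as a group. Per the authors' deposited table, 23 of 52 tested members fell and 1 rose. That is 44.2% of members lower, against a background of 5.61% lower and 5.72% higher among all 18543 tested entries (11.3% in both directions), per the authors' deposited table. The median log2 fold of the 51 members with a finite fold was -1.53, against 0.17 over all 15784 tested entries with one, per the authors' deposited table. Of those members, 46 had a fold below 1 and 35 a fold below 0.5 per the authors' deposited table, against 44.1% and 14.6% of all entries with a finite fold. Members that passed lay between -2.71 and -1.55 on the log2 scale, and the 1 that rose, Orc4l, stood at 1.43 per the authors' deposited table.

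**Figure D1:**
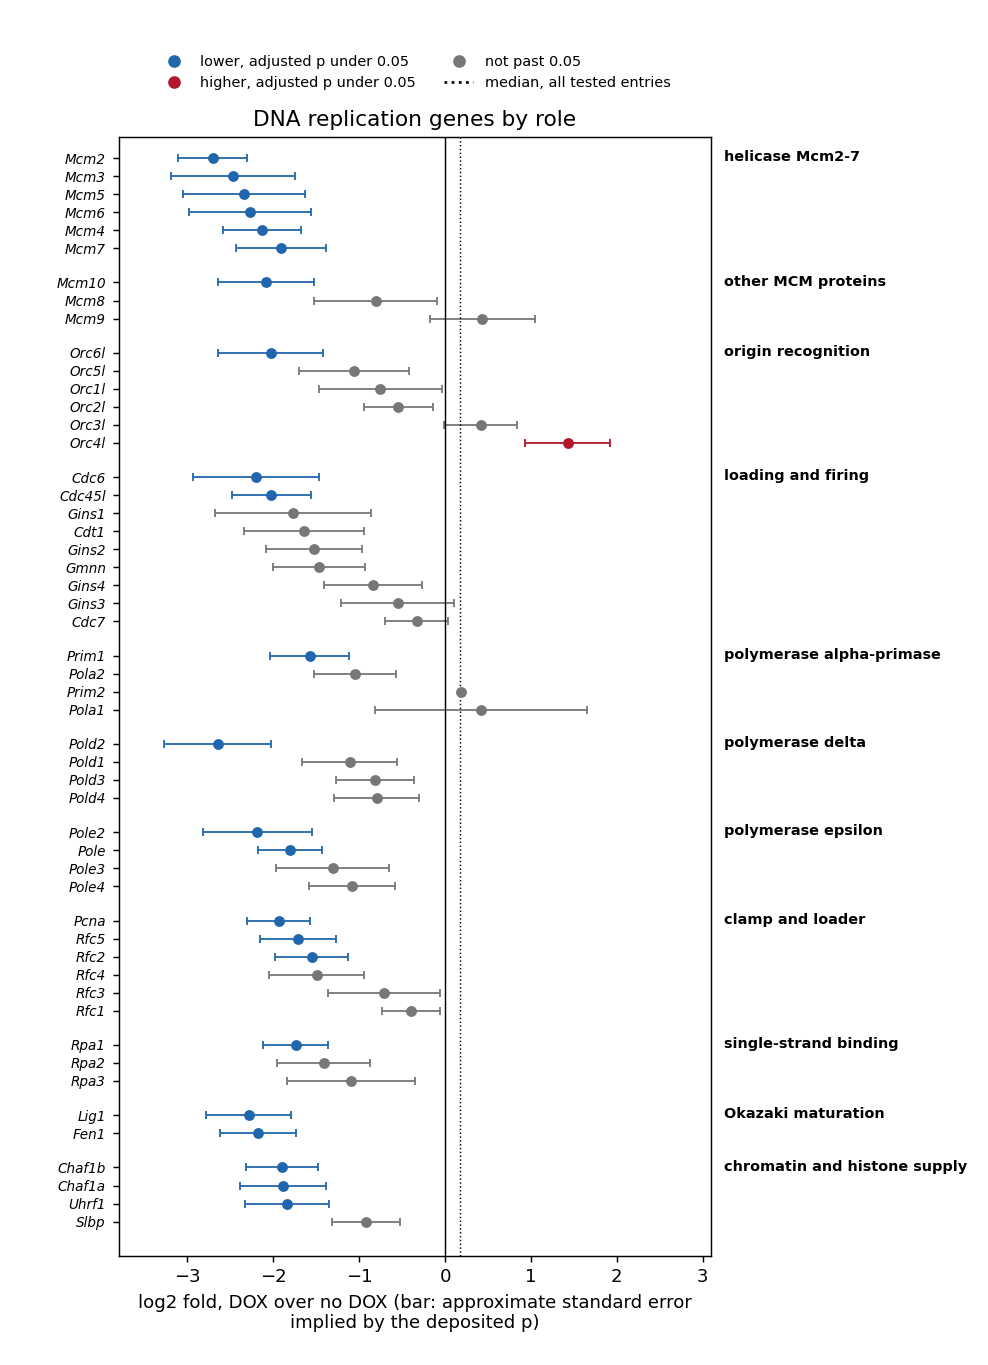
Log2 fold (DOX over no DOX) of the 51 members with a finite fold, in 11 groups by role; bars are the approximate standard error implied by the deposited p (none for Prim2, whose p is above 0.9). All 6 Mcm2-7 genes and both Okazaki genes lie far left of 0, while origin recognition genes spread from -2.03 to 1.43.

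The helicase ring fell as a whole, while 5.61% of all tested entries fell. All 6 genes of the Mcm2 to Mcm7 hexamer, the motor that unwinds DNA, passed, per the authors' deposited table, with a median log2 fold of -2.31. Mcm2 led all members at a log2 fold of -2.71 (SE 0.399, adjusted p = 5.48e-09), a ratio of 0.153, and ranked 40 of 18543 in order of adjusted p per the authors' deposited table. Mcm4 followed at -2.13 (SE 0.454, adjusted p = 0.000176) per the authors' deposited table. Mcm3 (-2.46), Mcm5 (-2.34), Mcm6 (-2.28) and Mcm7 (-1.91) had larger errors, and the least secure of them was Mcm6 (adjusted p = 0.0179), per the authors' deposited table. The lowest and highest of the 6, Mcm2 and Mcm7, differed by 0.797 in log2 fold, a difference that was not tested; the same holds for the other spans between subunits given here.

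A pair of promoters of the ring is shown because the E2F motif occurs in them in a double form. The windows run from 250 bases before to 50 after an annotated start (RefSeq, GRCm38.p6), 5′ to 3′ on the gene's strand, with E2F motif matches in capitals. Mcm5 lies at chr8:75109259-75109558 on the plus strand and Mcm6 at chr1:128359656-128359955 on the minus strand. In both, a match on one strand overlaps a match on the other, and Mcm6 has a further match nearer its start. The window of Mcm2, which had the lowest fold, holds no match. Mcm3 and a window of Mcm7 hold 2 matches each that do not overlap.
Mcm5: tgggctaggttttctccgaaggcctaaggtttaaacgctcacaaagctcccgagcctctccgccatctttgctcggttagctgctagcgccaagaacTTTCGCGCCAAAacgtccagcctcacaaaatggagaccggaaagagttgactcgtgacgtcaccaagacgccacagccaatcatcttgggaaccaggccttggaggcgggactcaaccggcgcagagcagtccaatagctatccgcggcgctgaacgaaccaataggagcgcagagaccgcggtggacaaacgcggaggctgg
Mcm6: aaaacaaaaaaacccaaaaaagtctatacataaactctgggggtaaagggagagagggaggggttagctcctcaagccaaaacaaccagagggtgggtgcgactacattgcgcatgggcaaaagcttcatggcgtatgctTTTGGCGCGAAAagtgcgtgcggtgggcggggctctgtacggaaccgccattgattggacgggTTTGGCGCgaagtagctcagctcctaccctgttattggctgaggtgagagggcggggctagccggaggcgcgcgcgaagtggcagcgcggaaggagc

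The relatives outside the ring divided. Mcm10, which helps to start the assembled helicase, fell by 2.08 on the log2 scale (SE 0.555, adjusted p = 0.00392) per the authors' deposited table. Mcm8 and Mcm9, which act together in homologous recombination and not in the ring, did not pass, at -0.81 (adjusted p = 0.623) and 0.44 (adjusted p = 0.845) per the authors' deposited table.

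The origin recognition complex, which marks where replication starts, had entries called in both directions. Of its 7 tested entries, which include the Orc6 entry with a ratio of 0, 1 fell and 1 rose per the authors' deposited table. Over all tested entries 5.61% fell and 5.72% rose, and counts this small do not describe the complex as a whole. Orc6l, the entry for the small Orc6 subunit, had a log2 fold of -2.03 (SE 0.608, adjusted p = 0.0127) per the authors' deposited table. Orc4l, a subunit of the ATPase family, had 1.43 (SE 0.495, adjusted p = 0.0381) per the authors' deposited table. As the lowest and highest of the complex, these 2 lie 3.46 apart in log2 fold. Orc5l (-1.06), Orc1l (-0.75), Orc2l (-0.54) and Orc3l (0.41) did not pass, with adjusted p from 0.345 to 0.701, per the authors' deposited table. A further entry for the Orc4 gene, MuORC4, had 2.84 (adjusted p = 0.811) per the authors' deposited table, so that gene has more than 1 entry.

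Loading and firing factors leaned lower, and 2 of 9 fell, against 5.61% of all tested entries, per the authors' deposited table. Cdc6, the ATPase that loads the ring with the origin complex, had a log2 fold of -2.20 (SE 0.731, adjusted p = 0.0286) per the authors' deposited table. Cdc45l, the Cdc45 gene, had -2.02 (SE 0.460, adjusted p = 0.000474) per the authors' deposited table. Cdt1, the partner of Cdc6 in loading, was at -1.64 (adjusted p = 0.119), and geminin (Gmnn), the inhibitor of Cdt1, at -1.46 (adjusted p = 0.0542) per the authors' deposited table. The 4 GINS subunits had folds below 1 and none passed, with Gins1 at -1.77, Gins2 at -1.53, Gins4 at -0.84 and Gins3 at -0.55 per the authors' deposited table. Gins1 had a lower fold than Rfc2, which passed at -1.55 (SE 0.427, adjusted p = 0.00560), but a wide error (SE 0.905, adjusted p = 0.225), per the authors' deposited table. Cdc7, the kinase that fires origins, was at -0.33 (adjusted p = 0.750) per the authors' deposited table.

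Each polymerase had at least 1 fallen subunit, and the fallen subunit was not always the catalytic one. Of 4 tested subunits in each, 1 fell in polymerase alpha with primase, 1 in delta and 2 in epsilon, per the authors' deposited table. Over all tested entries 5.61% fell, and counts this small do not describe a polymerase as a whole. In polymerase alpha with primase, Prim1, the catalytic primase subunit, had a log2 fold of -1.58 (SE 0.455, adjusted p = 0.00887) per the authors' deposited table. Pola2 (-1.04, adjusted p = 0.158), the primase large subunit Prim2 (0.19, adjusted p = 1) and the catalytic subunit Pola1 (0.42, adjusted p = 1) did not pass, per the authors' deposited table. Prim1 and Pola1, the lowest and highest of the 4, stood 2.00 apart in log2 fold, and Pola1 had the widest error of any member (SE 1.23). A further entry of that gene, POLA1, was at 0.87 (adjusted p = 0.888) per the authors' deposited table.

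In polymerase delta the accessory subunit Pold2 had a log2 fold of -2.65 (SE 0.625, adjusted p = 0.000840) per the authors' deposited table, next to Mcm2 the lowest of all members. The catalytic Pold1 (-1.11, adjusted p = 0.206), Pold3 (-0.82) and Pold4 (-0.80, adjusted p = 0.367) did not pass, per the authors' deposited table. Pold2 and Pold4, the lowest and highest, were 1.85 apart in log2 fold. In polymerase epsilon the catalytic Pole had -1.80 (SE 0.376, adjusted p = 0.000112) and Pole2 -2.18 (SE 0.632, adjusted p = 0.00929) per the authors' deposited table. The histone-fold subunits Pole3 (-1.31, adjusted p = 0.213) and Pole4 (-1.08, adjusted p = 0.161) did not pass, per the authors' deposited table. Polymerase epsilon subunits spanned 1.10 in log2 fold.

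The clamp Pcna had a log2 fold of -1.94 (SE 0.365, adjusted p = 1.25e-05), the second smallest adjusted p of the members, per the authors' deposited table. Of the 5 clamp loader subunits, Rfc5 (-1.71, adjusted p = 0.00302) and Rfc2 fell, against 5.61% of all tested entries, per the authors' deposited table. Rfc4 (-1.49, adjusted p = 0.0582), Rfc3 (-0.71, adjusted p = 0.644) and the large subunit Rfc1 (-0.39, adjusted p = 0.592) did not pass, per the authors' deposited table. A further Rfc1 entry, Recc1, was at 2.73 (adjusted p = 0.415) per the authors' deposited table. From Pcna to Rfc1, the lowest and highest of clamp and loader, the span was 1.54 in log2 fold.

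Replication protein A, which coats single-stranded DNA, had 1 of 3 subunits called lower, against 5.61% of all tested entries, per the authors' deposited table. The large subunit Rpa1 was at -1.74 (SE 0.380, adjusted p = 0.000259), Rpa2 at -1.41 (adjusted p = 0.0701) and Rpa3 at -1.09 (adjusted p = 0.439) per the authors' deposited table. The 3 spanned 0.645 in log2 fold.

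Both enzymes that finish Okazaki fragments fell, against 5.61% of all tested entries. The flap nuclease Fen1 had a log2 fold of -2.18 (SE 0.446, adjusted p = 8.19e-05) and the DNA ligase Lig1 -2.29 (SE 0.496, adjusted p = 0.000229) per the authors' deposited table. They differed by 0.111.

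Of the chromatin factors, 3 of 4 fell, against 5.61% of all tested entries, per the authors' deposited table. Chaf1b and Chaf1a, subunits of the chromatin assembly factor that places histones behind the fork, had log2 folds of -1.90 (adjusted p = 0.000278) and -1.89 (adjusted p = 0.00409) per the authors' deposited table. Uhrf1, which brings the maintenance methyltransferase to new DNA, had -1.84 (adjusted p = 0.00367) per the authors' deposited table. Slbp, which binds the stem-loop of histone mRNA, was at -0.92 (SE 0.398, adjusted p = 0.125) per the authors' deposited table.

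**Figure D2:**
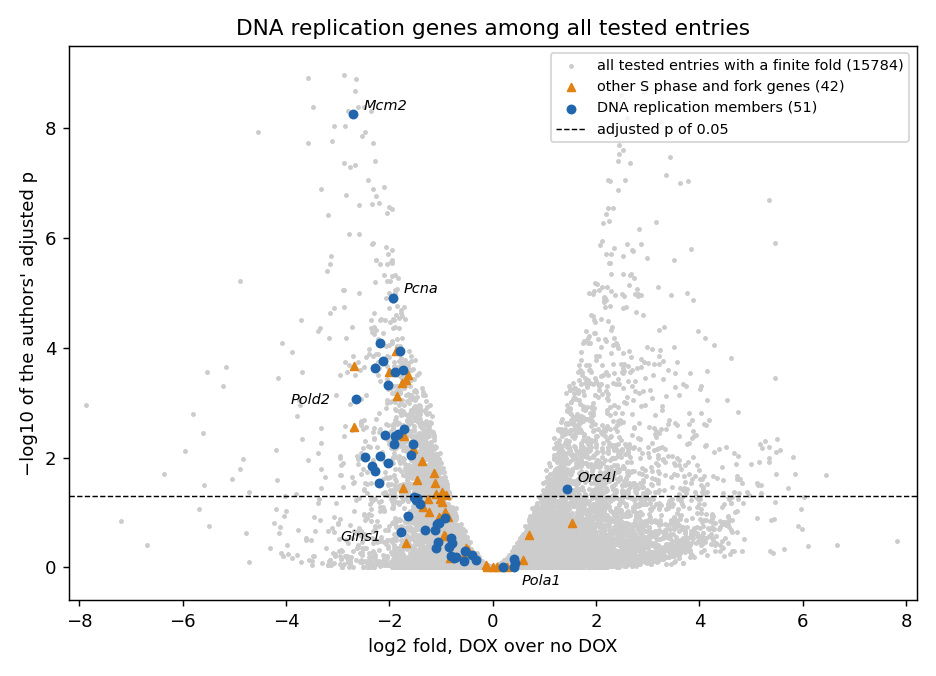
Log2 fold (x) and −log10 of the authors' adjusted p (y, shown up to 9.5, with 26 entries above) for all tested entries with a finite fold (grey), the 51 members (blue circles) and 42 other S phase and fork genes (orange triangles). Of the 51 members 46 lie left of 0, with Mcm2 highest at -2.71 and Orc4l alone past the dashed line on the right at 1.43.

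At other thresholds the share of fallen members also stood above the background. Under an adjusted p of 0.01, 19 fell and 0 rose, against 3.07% and 3.11% of tested entries, and under 0.1, 27 fell against 7.35%, per the authors' deposited table. With a Bonferroni adjustment 4 fell against 0.831%, and with adjustment over finite folds alone 25 fell against 6.96%, from p-values of the authors' deposited table.

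Members that fell and members that did not pass overlapped only in part in the size of their folds. The 23 that fell lay between -2.71 and -1.55 in log2 fold. The 12 others at -1 or lower lay between -1.77 and -1.04. The 23 that fell had a median SE of 0.487 (0.365 to 0.731), and 12 others with a log2 fold of -1 or lower that did not pass had a median SE of 0.556 (0.479 to 0.905), both computed from the authors' deposited table. Because the SE is computed from the p, it gives no separate account of which members passed. Just inside the threshold stood Mcm6 (0.0179), Cdc6 (0.0286) and Orc4l (0.0381), and just outside it Gins2 (0.0533), Gmnn (0.0542) and Rfc4 (0.0582), as adjusted p per the authors' deposited table. At an unadjusted p under 0.05 there were 34 of 52 members, against 22.4% of all tested entries, per the authors' deposited table.

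Other genes of S phase and the replication fork, from a list that holds no member, were mostly lower too. Of 42 tested, 19 fell and 0 rose, with a median log2 fold of -1.07, and 28 had an unadjusted p under 0.05, per the authors' deposited table. A fold below 1 was found in 36 of the 42, against 44.1% of all entries with a finite fold. The others did not pass, and the highest was Asf1a at 1.53 (adjusted p = 0.159), per the authors' deposited table. Over all 18543 tested entries 5.61% fell, 5.72% rose and 22.4% had an unadjusted p under 0.05, and the median log2 fold was 0.17, per the authors' deposited table. The listed genes with the smallest adjusted p were the maintenance methyltransferase Dnmt1 (-1.87, adjusted p = 0.000116), the exonuclease Exo1 (-2.69), the Cdt1-degrading ligase adaptor Dtl (-2.01), the histone chaperone genes Ssrp1 (-1.64), Asf1b (-1.68) and Rbbp7 (-1.77), Cdca5 (-1.85), whose product holds sister chromatids together, and cyclin E1, Ccne1 (-2.68, adjusted p = 0.00276), per the authors' deposited table. Dbf4, the activating partner of Cdc7, was at 0.08 (adjusted p = 1) per the authors' deposited table, beside the value of -0.33 for Cdc7 itself.

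Marker lists of other cell types and of the B lineage were counted in the same comparison, where 5.72% of all tested entries rose and 5.61% fell, per the authors' deposited table. Of 15 macrophage and monocyte markers 4 rose and 0 fell, all 15 had a fold above 1, and their median log2 fold was 1.93 per the authors' deposited table. Of 10 fibroblast markers 2 rose and 0 fell (median 2.10), and of 5 neutrophil markers 2 rose and 0 fell (median 4.90 over 4 finite folds) per the authors' deposited table. Endothelial markers had 0 of 6 higher and 1 lower (median 1.28), and 5 T cell markers had 0 called (median 0.82) per the authors' deposited table. Of 14 B lineage markers 4 rose and 2 fell (median 0.49) per the authors' deposited table. The table holds no level per group for these markers, and their part in the lower replication genes was not tested.

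Across the whole table, genes with longer transcripts had higher folds, while the longer replication genes had a median no higher than the shorter ones. Among all tested genes with an annotated transcript, 9.09% of those at or below the median length of 3170 bases fell and 2.22% rose, per the authors' deposited table. Of longer ones, 3.99% fell and 8.17% rose. Of the 32 members at or below that length 11 fell and 0 rose (median log2 fold -1.41), and of the 20 longer members 12 fell and 1 rose (median -1.77), per the authors' deposited table. Pole, the longest at 7163 bases, was at -1.80, while the decile of longest genes had a median of 0.70, per the authors' deposited table. The next longest members stood on both sides of 0. They were Chaf1a (5535 bases, -1.89), Pola1 (5346 bases, 0.42), Rpa1 (5077 bases, -1.74), Rfc2 (4995 bases, -1.55) and Mcm9 (4882 bases, 0.44). By GC content, 11 of 33 members at or below the median of 50.3% fell and 12 of 19 above it, against 4.46% and 8.62% of all such genes, per the authors' deposited table.

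**Figure D3:**
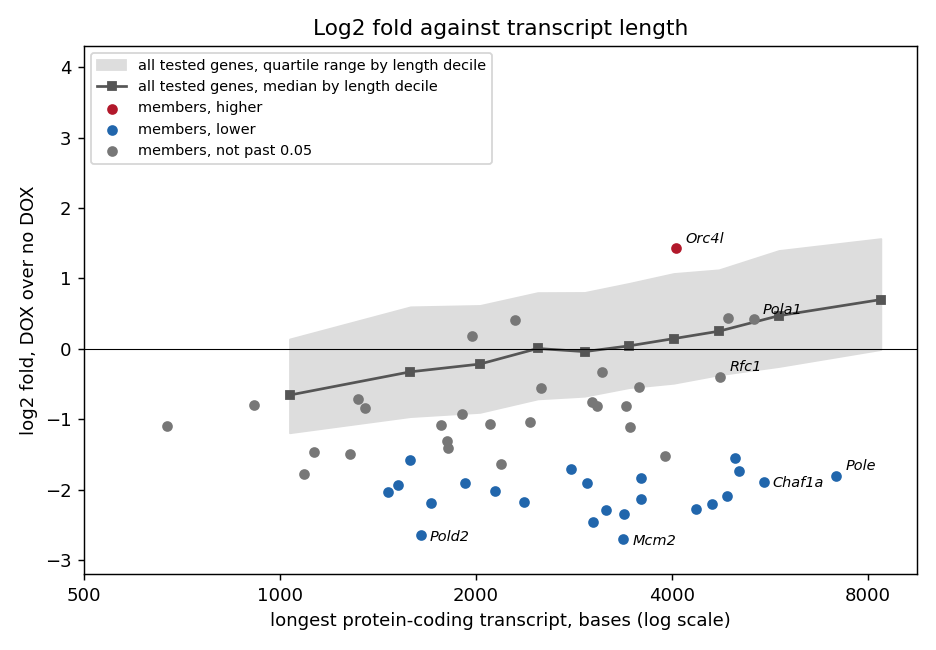
Log2 fold against the length of the longest protein-coding transcript (log scale) for members (points) and, for all tested genes, the median and quartile range in 10 equal bins of length (squares and band). The band climbs from a median of -0.66 to 0.70. Members that fell lie at -1.55 or lower and run from 1466 bases (Orc6l) to 7163 bases (Pole), so none is in the shortest bin.

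Promoter windows were found for 43 of 51 member genes. The E2F motif was searched as TTTCGCGC, TTTGGCGC or TTTCCCGC on both strands; matches on opposite strands may overlap. At least 1 match stood in a promoter of 18 of these 43 genes (41.9%), against 3.75% of 11503 tested genes with a promoter, and in 35.2% of 54 member windows, against 3.11% of 14633 windows of tested genes and 1.84% of all 32851 windows. A match was found in 8 of 20 genes that fell and in 10 of 23 that did not. Among the latter was Pola1, with a log2 fold of 0.42 per the authors' deposited table. It had the widest error of any member (SE 1.23), so its direction is uncertain. The Pola1 window, at chrX:93632106-93632405 on the minus strand (RefSeq, GRCm38.p6), is shown with its match in capitals as 1 example of a gene that did not pass.
Pola1: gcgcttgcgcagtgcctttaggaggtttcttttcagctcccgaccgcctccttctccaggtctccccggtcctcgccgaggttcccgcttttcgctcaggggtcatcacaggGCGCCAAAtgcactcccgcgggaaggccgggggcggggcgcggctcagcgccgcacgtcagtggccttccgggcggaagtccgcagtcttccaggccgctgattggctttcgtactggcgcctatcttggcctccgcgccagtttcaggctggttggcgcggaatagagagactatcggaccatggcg

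**Figure D4:**
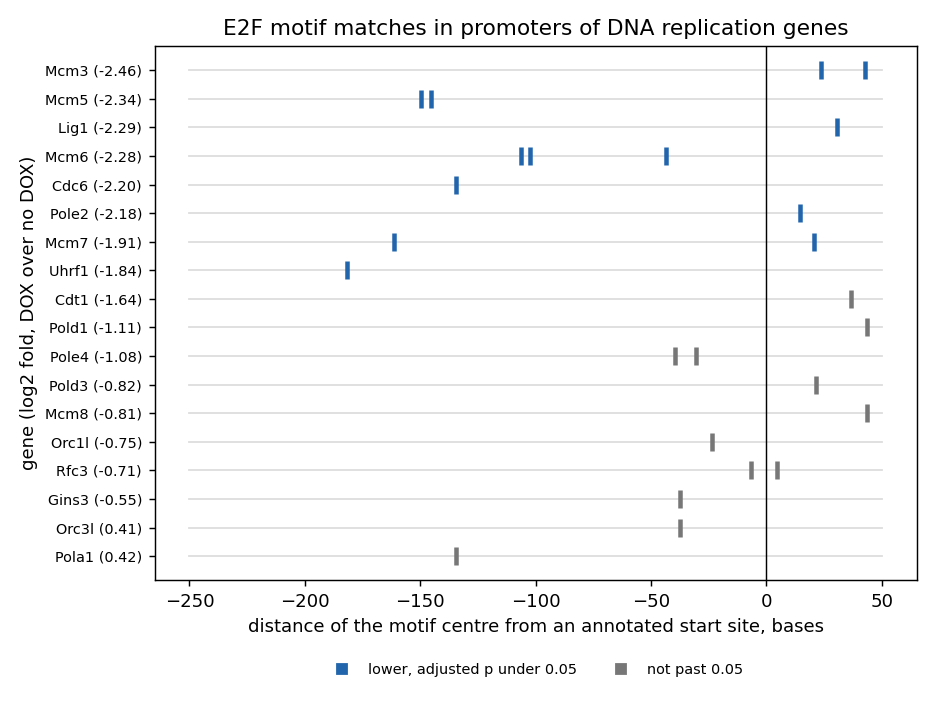
Positions of E2F motif matches, in bases from an annotated start site, in the 18 member genes that have one, ordered by log2 fold (DOX over no DOX, in parentheses); genes with several starts show the matches of all their windows on 1 line. Matches stand on both sides of the start in genes that fell (blue) and in genes that did not pass (grey).

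MicroRNAs lower the transcripts they pair with through a short seed, so pairing sites of miR-155 in the members were located. The mature sequence is shown with its seed, bases 2 to 8, in capitals (RefSeq), followed by sites of 3 members on the mRNA strand (GENCODE M21), with a 7-base match in capitals. Mcm2 and Mcm4 are shown as members that fell and carry a site, and Orc4 as the member that rose.
miR-155-5p: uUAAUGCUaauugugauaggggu
Mcm2: gccaaggctgtAGCATTAaatgactattt
Mcm4: aaagccattgtAGCATTAaatcttgtgta
Orc4: aaattttctgtGCATTAAtgtagtacctc

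Over all tested genes with an annotated 3′ UTR, 2016 had a match to AGCATTA or GCATTAA there and 12742 had none, so a match is not particular to the members. Of the 52 tested members 9 had such a match. Of these 9, 3 fell (Mcm2, Mcm4 and Fen1) and Orc4l rose, and the median log2 fold was -1.64, per the authors' deposited table. Cdt1, Gins1, Gins3, Pole3 and Slbp also carry a match and did not pass, per the authors' deposited table. Of the 43 members without a match 20 fell and 0 rose (median -1.51), per the authors' deposited table. Among tested genes with an annotated 3′ UTR, 4.02% of the 2016 with a match fell and 9.72% rose, against 6.95% and 4.48% of the 12742 without, per the authors' deposited table. Transcripts above the median length split in a similar way, with 3.99% lower and 8.17% higher, against 9.09% and 2.22% of the others. So did genes at or below the median GC content, with 4.46% lower and 8.18% higher, against 8.62% and 2.20% above it. The seed match was not tested apart from length or GC content.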

How the data were processed

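RNA-seq of 6 tumour samples, 3 DOX and 3 no DOX, was processed by the authors with RSEM and DESeq on the mouse build mm9, per the submitters' processing notes, which give no versions. The deposited file holds 1 fold per gene, which is a linear ratio by its column header, with p-values of the authors before and after adjustment. Depth and values per sample are unknown, and no test was run on samples. Whether the 3 samples of a group were separate animals is not stated in the labels; p-values then reflect only how far these samples differ among themselves, which could be technical.

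Log2 folds were computed from the deposited ratio for tested entries; 2180 with a ratio of Inf and 579 with 0 have none. The deposited adjusted p-values differ from a Benjamini-Hochberg adjustment over the 18543 tested entries by at most 2.09e-06. Members, lists and markers were chosen with earlier results of these data known. Every member is named, with adjusted p for those that lead or end a group, have the 10 smallest values or stand beside the threshold, and the 8 other S phase genes of smallest adjusted p; some others were added after their values were seen. Symbols were matched to RefSeq (GRCm38.p6) by symbol, accession or unique synonym (15164 of 18543). Transcripts, lengths and 3′ UTRs are the longest protein-coding ones of GENCODE M21. Python 3.11.15, pandas 2.3.3 and scipy 1.17.1 were used. Alternatives covered thresholds, adjustment and membership.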

Additional observations from a re-analysis of the deposited data

How the results depend on the processing

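No paired analysis was possible because the deposited table holds no value per sample, and leaving out samples, a minimum mean count and other normalizations were not run for the same reason. Of the members, 23 were lower and 1 higher. The lower count ranged from 19 (adjusted p under 0.01, or core members without chromatin factors, Gmnn and Fen1) to 27 (under 0.1), except under Bonferroni, by construction stricter, where 4 were lower and 0 higher: Mcm2, Pcna, Fen1 and Pole. The count of 1 higher became 0 at an adjusted p under 0.01. Without the 6 entries whose gene stands in the table more than once, an alternative chosen after seeing the data, 21 of 46 were lower and 0 higher, so the rise of Orc4l rests on a gene with more than 1 entry. Adjusted over finite folds alone, 25 were lower, Gins2 and Gmnn being added. The median log2 fold of -1.53 was -1.70 relative to the median of all tested entries, -1.49 for core members and -1.54 without genes with several entries. Of the 42 other S phase and fork genes 19 were lower. Under 0.01 there were 11, against 3.07% of all tested entries, and under Bonferroni 1, against 0.831%. The depth behind each value is unknown.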

Other observations

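Other promoter letters were counted in the same windows. The E-box CACGTG, the same on both strands, stood in a promoter of 8 of 43 member genes (18.6%), against 11.1% of tested genes, and the CCAAT box in 27 of 43 (62.8%), against 42.5%. Among members that fell the CCAAT box was found in 14 of 20 genes, and among the others in 13 of 23.

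Of the genes with more than 1 entry, a second spelling of Cdc6, written cdc6, has a ratio of 0 in the authors' deposited table (adjusted p = 0.802), beside -2.20 for Cdc6. The entries MuORC4, POLA1 and Recc1 have higher log2 folds (2.84, 0.87 and 2.73) than Orc4l, Pola1 and Rfc1 (1.43, 0.42 and -0.39) in the authors' deposited table, and none of the 3 passed.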
